A study of Mus musculus with 4 samples.

Results

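The genes described here are those of the Fanconi, homologous recombination, end joining and mismatch repair pathways, chosen by name: a Fanc gene with a single letter, Brca1 or Brca2, any gene whose name begins with Rad5 and a digit, and the numbered Xrcc, Msh, Mlh and Pms genes. The rule uses names and no measured value, but it was chosen with earlier results of these data known. It found 32 genes among the 9244 with library values. They were measured by RNA sequencing of polyA RNA in 2 Sin3B KO and 2 WT libraries of long-term haematopoietic stem cells, from which all blood cells descend. Both groups came from C57BL/6 mice aged 8 to 12 weeks and were sorted as LSK CD34- Flk2- cells (lineage-negative, Sca-1-positive, Kit-positive cells without CD34 and Flk2). The sources used here do not say how the Sin3B allele was made, which cells carried the deletion or whether each library had its own animals. A p-value therefore reflects only how far these libraries scatter, and that scatter may be technical. Sin3B holds together corepressor complexes that contain histone deacetylases, and the study was made to find the genes it regulates.

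These pathways repair different lesions. Fanconi proteins recognise DNA strands that are linked to each other: a core complex attaches ubiquitin to the Fanci-Fancd2 pair, and nucleases, Brca1, Brca2 and the recombination genes then restore the duplex by recombination with the sister chromatid, a step of the S and G2 phases of the cell cycle. Broken ends can instead be joined directly by Ku, Xrcc4 and DNA ligase, which needs no sister and serves non-dividing cells. Mismatch repair removes replication errors. Inherited loss of Fanconi genes causes bone marrow failure, and blood stem cells are among the cells most affected.

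Values are normalised read counts, made by the authors by dividing each gene's reads by 1 size factor per library. The values of a library lie on evenly spaced steps. If a step is taken as 1 read, which was inferred from the values and is not stated in the sources used here, between 9950979 and 13700630 reads fell in the listed genes of a library, and the member with the fewest had 84 in a library (Fanca). The targeted gene Sin3b had 755 and 647 normalised read counts in the Sin3B KO libraries, against 1522 and 1825 in the WT libraries, so some Sin3b reads were left in both KO libraries. All 10 stem cell genes of the marker list (Kit and Ly6a of the gate among them) were measured. Their summed level was 74640 and 86206 in Sin3B KO 1 and 2, and 81717 and 77966 in WT 1 and 2. Transcripts of the markers that the gate leaves out were also present. Cd34 had 5623 and 5133 in Sin3B KO 1 and 2, against 6508 and 4945 in WT 1 and 2. Flt3, which encodes Flk2, had 830 and 354 against 1170 and 372. The libraries numbered 1 had the higher summed levels of other blood cells' genes in both genotypes. The summed level of 10 of 10 neutrophil and monocyte genes was 52788 and 24178 in Sin3B KO 1 and 2, against 76837 and 14672 in WT 1 and 2. For 7 of 9 erythroid genes it was 17840 and 6897 in Sin3B KO 1 and 2, against 7720 and 5240 in WT 1 and 2, with Slc4a1 at 0 in a library. Of these genes Gata1, Car1 and Epor also had groups that did not overlap, with Sin3B KO higher and WT 1 the lower WT library. Gata1, a transcription factor of the erythroid and megakaryocyte lineages, had 3144 and 1842 normalised read counts in the Sin3B KO libraries, against 1004 and 1063 in the WT libraries, and its adjusted p in the authors' deposited table is 0.00705 (limma, adjusted p = 0.548). Car1 had 10488 and 3984 in the Sin3B KO libraries, against 2847 and 3353 in the WT libraries, and Epor had 574 and 541 against 389 and 397. For 6 of 8 B lineage genes it was 4465 and 1703 against 3809 and 1503. For 2 of 6 T and NK genes it was 2627 and 1361 against 1914 and 1190, with Il7r at 0 in a library. The part of these cells in the results below was not tested. In bulk samples, fewer cells of a type and less RNA per cell cannot be told apart.

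The repair genes leaned towards higher values in Sin3B KO cells, by small amounts. Of the 32, 23 had a log2 fold change above 0 and 9 below, where 53.4% of all genes tested were above 0. Their median log2 fold change was 0.17, against 0.03 over all genes tested, and the values ran between -0.63 (Fancm) and 1.04 (Rad51ap1). Restricted to means of at least 500, the median was 0.17 for 16 members and 0.11 for all genes tested. Over all levels, the members' median was 0.29 without Sin3B KO replicate 2 and 0.13 without WT replicate 2. The groups did not overlap for 16 members, where 44.1% of all genes did not. In 14 members (43.8%) the KO values were the higher ones and in 2 (6.25%) the lower ones, where these shares were 24.7% and 19.4% over all genes. With each library scaled to the same total, 11 members lay above and 4 below. With any 1 library left out, between 17 and 20 lay above and between 4 and 8 below, as fewer values are then compared. For neither of these settings were the shares over all genes counted, so these member counts have no background. No member passed the threshold, a Benjamini-Hochberg adjusted p under 0.05 in limma over all genes (0 of 32), and 0.0% of all genes did. The lowest adjusted p among members was 0.548 (limma). At an unadjusted p under 0.05, 4 members were higher and 0 lower, where 8.91% of all genes were under it, 4.97% higher and 3.95% lower. By the authors' deposited table, 4 members were under an unadjusted p of 0.05 and 0 under an adjusted p of 0.05, where 9.5% and 0.316% of all listed genes were.

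**Figure D1:**
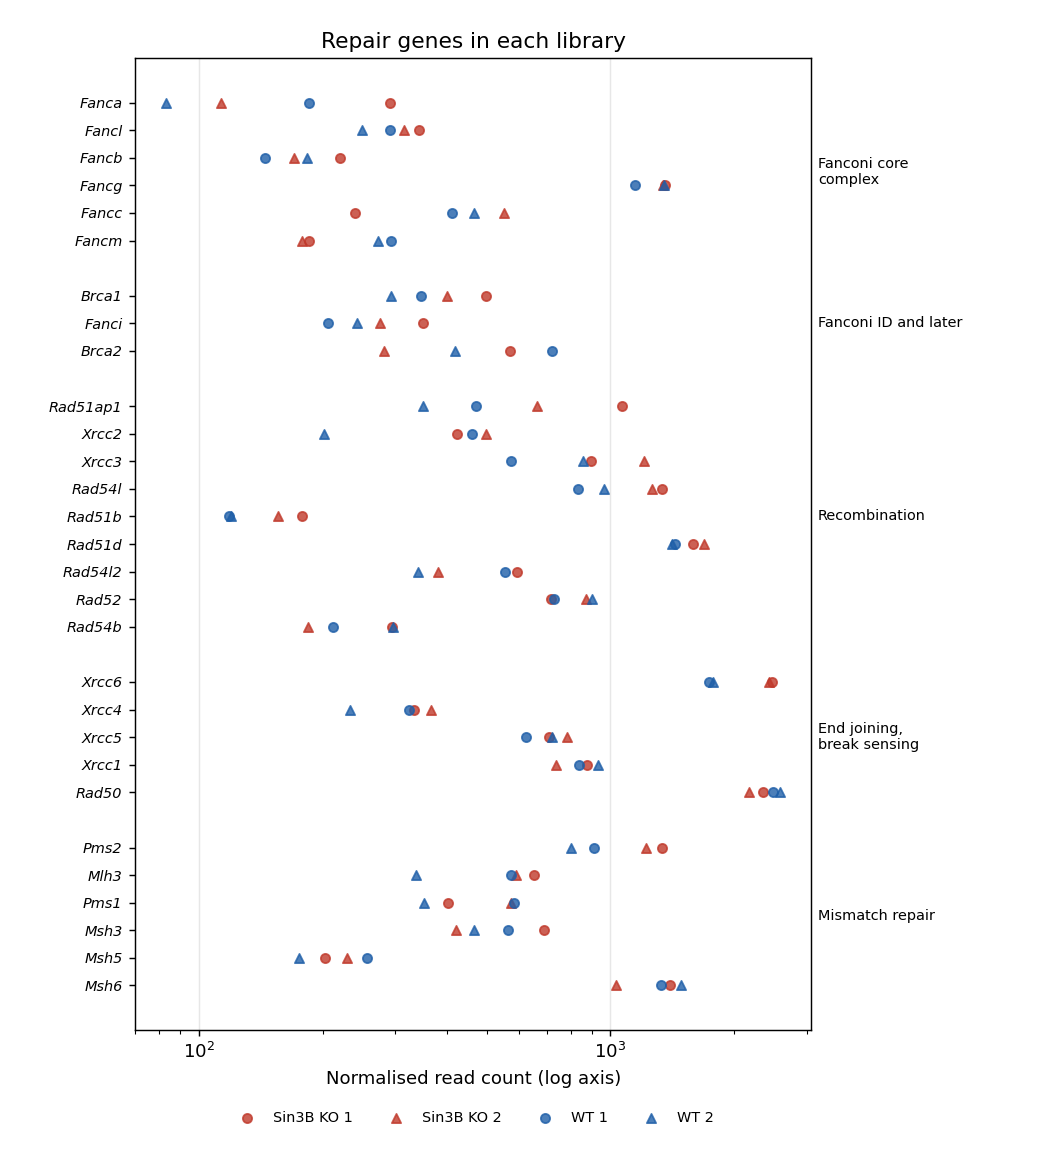
Normalised read counts (log axis) of repair genes in each library, with Sin3B KO in red and WT in blue, circles for replicate 1 and triangles for replicate 2. Red and blue stand apart for Rad51ap1, Rad54l, Xrcc6 and Pms2, while for Rad52 and Pms1 they interleave.

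The 4 members with an unadjusted p under 0.05 came from recombination, end joining and mismatch repair. Rad51ap1, whose product helps a broken strand pair with its template, had 1065 and 663 normalised read counts in the Sin3B KO libraries, against 471 and 351 in the WT libraries. Its groups did not overlap, and Sin3B KO 1 was the highest library. The log2 fold change was 1.04 (SE 0.30), and 108 genes of the whole table, itself included, ranked as high or higher by p. Rad54l, a DNA translocase that works during strand exchange, had 1338 and 1265 normalised read counts in the Sin3B KO libraries, against 833 and 965 in the WT libraries (log2 fold change 0.54, SE 0.21). Xrcc6, the Ku70 subunit of the end-binding Ku dimer, had 2463 and 2428 in the Sin3B KO libraries, against 1739 and 1779 in the WT libraries (log2 fold change 0.48, SE 0.19). The libraries of a genotype were closest to each other for Xrcc6 among these 4 genes. Pms2, the endonuclease subunit of the main MutL dimer of mismatch repair, had 1335 and 1219.95 in the Sin3B KO libraries, against 913 and 800.2 in the WT libraries (log2 fold change 0.58, SE 0.21). For Rad54l, Xrcc6 and Pms2 every KO value was above every WT value, and the libraries within a genotype lay close together.

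None of these differences passed over all genes (limma, adjusted p = 0.548 for each). Unadjusted, the limma p was 0.00791 for Rad51ap1, 0.033 for Rad54l, 0.0325 for Xrcc6 and 0.0247 for Pms2. With each library scaled to the same total, it was 0.0582 for Rad54l and 0.062 for Xrcc6. It was then 0.0145 for Rad51ap1 and 0.0469 for Pms2. With the replicate number as a block, Xrcc3 was also under 0.05 (limma, unadjusted p = 0.0174). Left-out libraries moved the log2 fold change of Rad51ap1 between 0.70 and 1.39, of Rad54l between 0.43 and 0.64, of Xrcc6 between 0.46 and 0.49 and of Pms2 between 0.48 and 0.67. The authors' deposited table gives these genes log2 fold changes of 0.76, 0.44, 0.41 and 0.47, with adjusted p-values of 0.183, 0.477, 0.437 and 0.432, in the same order. Part of the exons of Rad54l (15.4% of the length) lies opposite Lrrc41, and of Xrcc6 (7.69%) opposite Desi1. Exons of Pms2 share 4.85% of their length with Gm42421 and 1.05% with Rsph10b, both on the same strand. Neither name was among the genes tested. No source used here says whether reads were counted by strand. Lrrc41 had 1652 and 2098 normalised read counts in the Sin3B KO libraries, against 1398 and 1541 in the WT libraries, and Desi1 had 383 and 254 against 209 and 294.

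**Figure D2:**
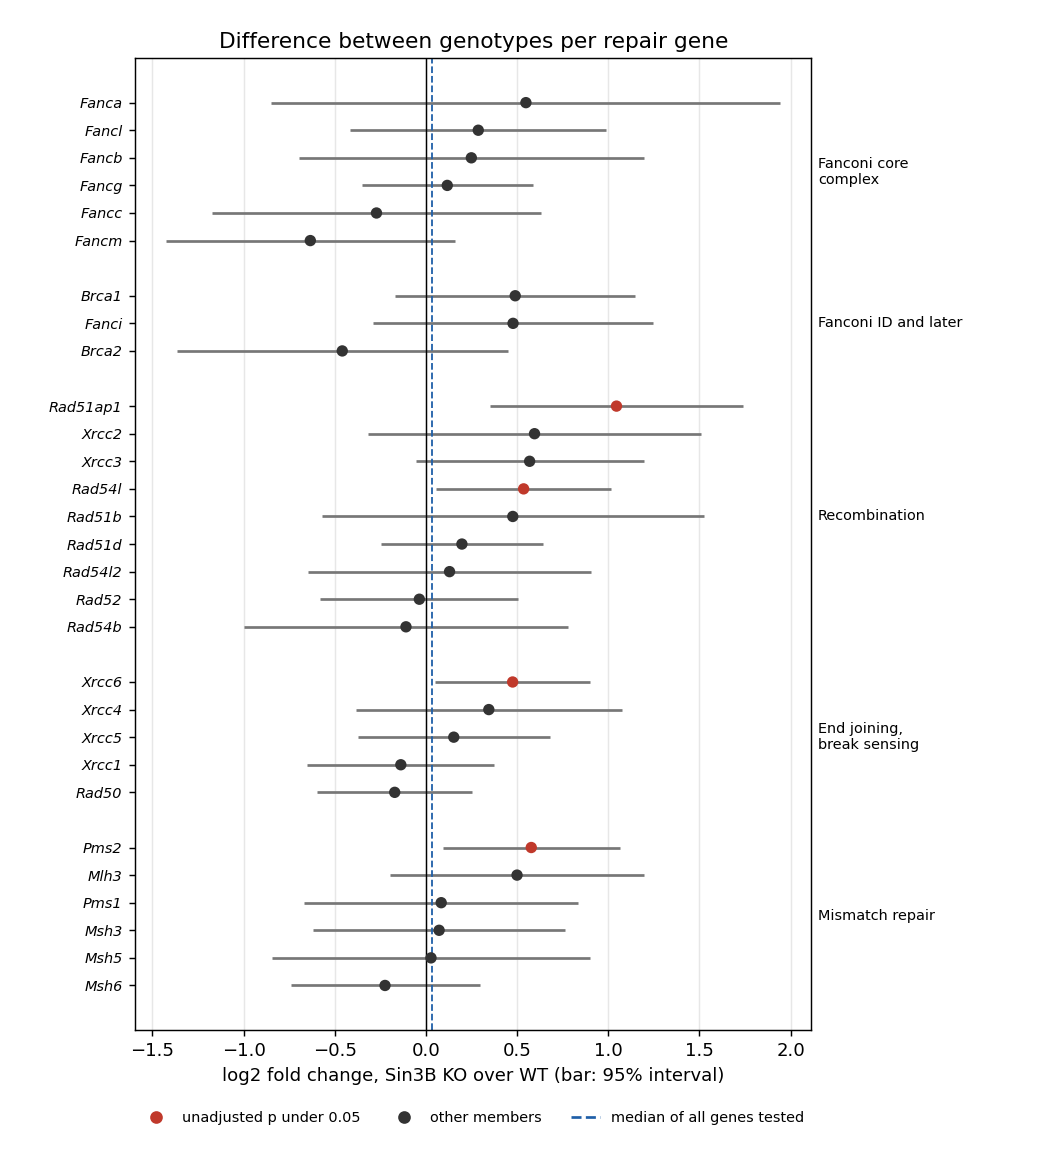
Log2 fold change of repair genes, Sin3B KO over WT, with its 95% confidence interval from limma, grouped by pathway; red points have an unadjusted p under 0.05. Of the genes plotted, only Rad51ap1, Rad54l, Xrcc6 and Pms2 have intervals that leave out 0, and the dashed line is the median of all genes tested, 0.03.

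The promoters of these 4 genes are shown because Sin3 complexes reach DNA through sequence-specific factors, among them E2F-family complexes at cell cycle genes. Each runs from 250 bases before to 50 bases after the RefSeq start site (GRCm38.p6), 5′ to 3′ on the strand of the gene. Capitals mark, on either strand, the letters CCAAT (the CCAAT box of the factor NF-Y), GGGCGG (a GC box) and TTTCCCGC or TTTGGCGC (forms of the E2F site).
Rad51ap1 (chr6:126939538-126939837, minus strand): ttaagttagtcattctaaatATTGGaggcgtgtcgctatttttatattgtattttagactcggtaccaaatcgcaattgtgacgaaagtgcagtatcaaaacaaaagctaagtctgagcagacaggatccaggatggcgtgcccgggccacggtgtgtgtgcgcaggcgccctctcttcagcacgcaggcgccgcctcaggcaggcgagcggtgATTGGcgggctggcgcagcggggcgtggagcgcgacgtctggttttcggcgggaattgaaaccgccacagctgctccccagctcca
Rad54l (chr4:116123641-116123940, minus strand): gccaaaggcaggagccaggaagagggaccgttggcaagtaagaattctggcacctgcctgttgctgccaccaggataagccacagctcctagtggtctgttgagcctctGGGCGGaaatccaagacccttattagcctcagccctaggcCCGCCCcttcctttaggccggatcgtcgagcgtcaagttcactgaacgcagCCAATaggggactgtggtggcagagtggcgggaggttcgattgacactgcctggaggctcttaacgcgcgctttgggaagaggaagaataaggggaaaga
Xrcc6 (chr15:82016119-82016418, plus strand): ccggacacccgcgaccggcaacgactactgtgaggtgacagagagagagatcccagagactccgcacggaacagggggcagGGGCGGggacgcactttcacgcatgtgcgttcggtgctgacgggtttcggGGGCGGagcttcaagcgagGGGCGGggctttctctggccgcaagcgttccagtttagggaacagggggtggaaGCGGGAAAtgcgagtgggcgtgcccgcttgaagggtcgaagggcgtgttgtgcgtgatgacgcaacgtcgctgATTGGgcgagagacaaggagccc
Pms2 (chr5:143909751-143910050, plus strand): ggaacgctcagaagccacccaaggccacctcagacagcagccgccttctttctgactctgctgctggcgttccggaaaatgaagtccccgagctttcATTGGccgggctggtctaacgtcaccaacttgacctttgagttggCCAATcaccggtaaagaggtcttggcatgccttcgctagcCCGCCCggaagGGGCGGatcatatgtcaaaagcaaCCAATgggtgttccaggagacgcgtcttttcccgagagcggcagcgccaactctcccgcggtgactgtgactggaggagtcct
Rad51ap1 had 2 CCAAT boxes and no GC box, Rad54l had 1 CCAAT box and 2 GC boxes, and Pms2 had 3 CCAAT boxes and 2 GC boxes. The promoter of Xrcc6 held 3 GC boxes, 1 CCAAT box and 1 E2F form, TTTCCCGC, read on the opposite strand.

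A RefSeq promoter was found for 24 of the 32 members. Of these, 17 (70.8%) held CCAAT, where 39.0% of the 7079 promoters of tested genes and 37.9% of all 27025 promoters did. GGGCGG stood in 14 (58.3%), where 66.0% of the promoters of tested genes and 35.9% of all promoters held it. TTTCCCGC stood in 5 (20.8%), where 2.26% of the promoters of tested genes and 1.11% of all promoters held it. TTTGGCGC stood in 1, where 1.19% of the promoters of tested genes and 0.537% of all promoters held it. TTTGAA, the CHR element of mitotic genes, was found in 0 of 24, where 11.6% of the promoters of tested genes and 18.1% of all promoters held it. The E2F letters and the GC box can share bases where they adjoin. The members with TTTCCCGC did not move one way: their log2 fold changes were 0.48 for Xrcc6, 0.12 for Fancg, 0.03 for Msh5, -0.22 for Msh6 and -0.46 for Brca2, and that of Msh3, with TTTGGCGC, was 0.07. The value of Brca2 was 0.05 without Sin3B KO replicate 2. That of Msh5 was -0.06 without Sin3B KO replicate 2 and -0.24 without WT replicate 2, and that of Msh3 was -0.28 without Sin3B KO replicate 1 and -0.06 without WT replicate 2. A match of letters is a description, and binding was not measured here.

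**Figure D3:**
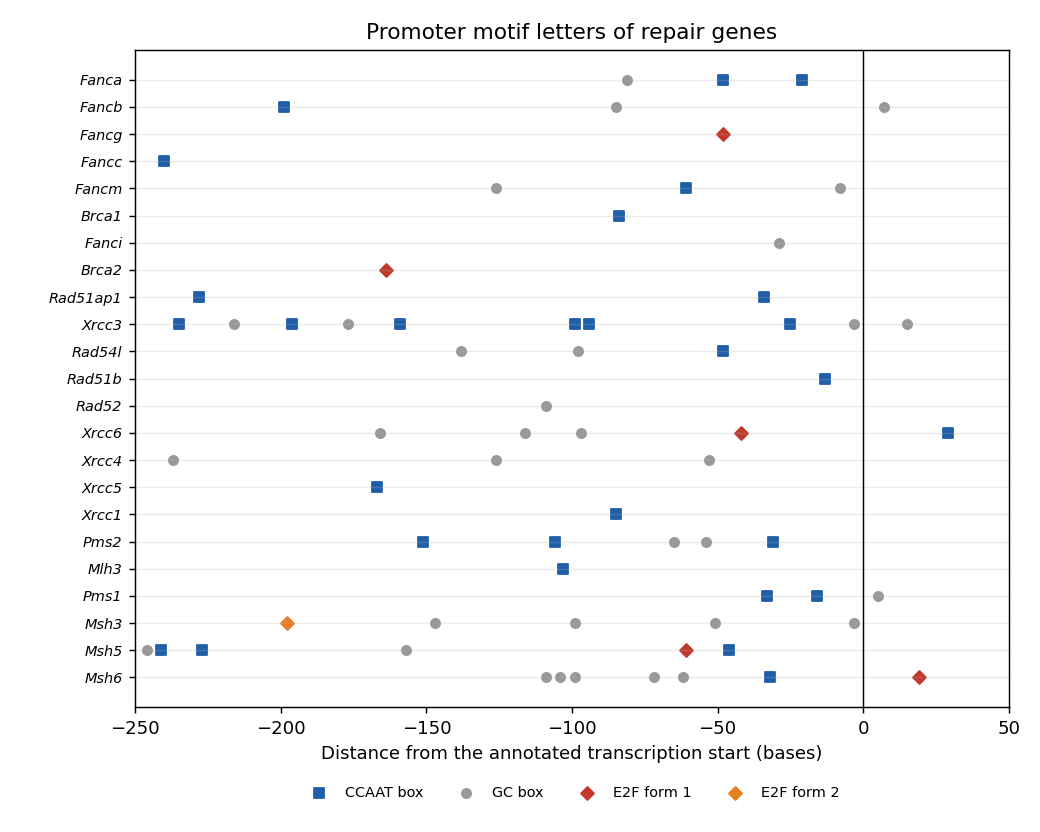
Positions of the motif letters in the RefSeq promoters of repair genes, in bases from the annotated transcription start, for genes with at least 1 match. Squares are CCAAT, circles GGGCGG, and diamonds the 2 E2F forms, TTTCCCGC and TTTGGCGC.

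The Fanconi core complex is the ubiquitin ligase that acts first at linked strands. Of its subunits 6 were measured, 4 with a log2 fold change above 0 and 2 below (median 0.18), and none had an unadjusted p under 0.05 in limma. Fancg, a scaffold subunit, was the most abundant per length, at 355 normalised read counts per kb of exon in Sin3B KO cells and 329 in WT cells. Fancg had 1359 and 1339 normalised read counts in the Sin3B KO libraries, against 1148 and 1347 in the WT libraries, and its groups overlapped (log2 fold change 0.12, 95% interval -0.35 to 0.59). Without WT replicate 1 the log2 fold change of Fancg was 0.002, and without WT replicate 2 it was 0.23. Fancl, the subunit with the ligase activity, had 342 and 316 in the Sin3B KO libraries, against 291 and 249 in the WT libraries. Both KO values of Fancl were higher, by a log2 fold change of 0.29 (SE 0.31), which did not pass (limma, adjusted p = 0.737). Exons of Fancl share 13.7% of their length with Vrk2 on the opposite strand.

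Fancm, the translocase that anchors the core complex to DNA, had the lowest log2 fold change of all members. It had 185 and 178 normalised read counts in the Sin3B KO libraries, against 293 and 273 in the WT libraries (log2 fold change -0.63, SE 0.35). The libraries of each genotype lay close together and the groups did not overlap, and the value stayed between -0.68 and -0.58 when a library was left out. It did not pass (limma, unadjusted p = 0.103, adjusted p = 0.562). Fancb, which forms a subcomplex with Fancl, had 220.1 and 170.3 in the Sin3B KO libraries, against 145 and 183 in the WT libraries, and its groups overlapped.

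Fanca and Fancc differed more between libraries of a genotype than between the means of the genotypes. Fanca, the subunit most often mutated in human Fanconi anaemia, had 291 and 113 normalised read counts in the Sin3B KO libraries, against 185 and 83.1 in the WT libraries. Its log2 fold change of 0.55 became -0.13 without Sin3B KO replicate 1 and -0.02 without WT replicate 2. The libraries numbered 1 were the higher ones in both genotypes. Fancc had 239 and 552 in the Sin3B KO libraries, against 413 and 467 in the WT libraries. The log2 fold change of Fancc, -0.27, became 0.33 without Sin3B KO replicate 1. Of the exon length of Fanca 10.5% lies opposite Zfp276, and of Fancc 16.4% opposite Gm16133, which was not among the genes tested. Zfp276 had 186 and 111 normalised read counts in the Sin3B KO libraries, against 206 and 182 in the WT libraries.

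Among the later Fanconi steps, every KO value was above every WT value for Fanci and Brca1 but not for Brca2. Fanci, the partner that the core complex modifies, had 351 and 276 normalised read counts in the Sin3B KO libraries, against 205 and 242 in the WT libraries (log2 fold change 0.48, SE 0.34). Of its exon length 15.95% lies opposite Polg, which had 199 and 339.8 in the Sin3B KO libraries, against 295 and 398 in the WT libraries. Brca1, which steers broken ends towards recombination, had 499 and 400.4 in the Sin3B KO libraries, against 345 and 293 in the WT libraries (log2 fold change 0.49, SE 0.29). Neither passed (limma, adjusted p = 0.627 for Fanci and 0.585 for Brca1). Brca2, a mediator of recombination at single-stranded DNA, had 569 and 281 in the Sin3B KO libraries, against 723 and 418 in the WT libraries. The groups of Brca2 overlapped, with the libraries numbered 1 the higher ones in both genotypes, and its log2 fold change of -0.46 became 0.05 without Sin3B KO replicate 2.

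The recombination group held 10 members, 7 of them above 0 and 3 below, with a median log2 fold change of 0.34. Rad52, an annealing factor, had 717 and 870.4 in the Sin3B KO libraries, against 727 and 902 in the WT libraries (log2 fold change -0.04, 95% interval -0.58 to 0.51). Its value turned to 0.10 without Sin3B KO replicate 1 and 0.12 without WT replicate 2.

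Rad51b, Rad51d, Xrcc2 and Xrcc3 are paralogs whose products form small complexes that assist recombination. Rad51d had the highest level per length of the group, at 440.1 normalised read counts per kb of exon in Sin3B KO cells and 384 in WT cells. It had 1584 and 1685 normalised read counts in the Sin3B KO libraries, against 1438 and 1412 in the WT libraries, a narrow gap with no overlap (log2 fold change 0.20, SE 0.19). Xrcc3 was next per length, and had 899 and 1205 in the Sin3B KO libraries, against 573 and 858 in the WT libraries. Its groups did not overlap, although the libraries within each genotype were far apart (log2 fold change 0.57, SE 0.27; limma, unadjusted p = 0.0696, adjusted p = 0.550). Leaving out Sin3B KO replicate 2 gave Xrcc3 a log2 fold change of 0.36, and leaving out WT replicate 1 gave 0.28. Rad51b had 178 and 155 in the Sin3B KO libraries, against 119 and 119.7 in the WT libraries (log2 fold change 0.48, SE 0.46). Xrcc2 had 423 and 499 in the Sin3B KO libraries, against 459 and 201 in the WT libraries, so that its difference (log2 fold change 0.60, SE 0.40) rested on WT replicate 2: without that library it was 0.00.

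The 2 other genes named after Rad54 showed groups that overlapped. Rad54b, a paralog of Rad54l, had 294 and 184 normalised read counts in the Sin3B KO libraries, against 212 and 297 in the WT libraries. Its log2 fold change of -0.11 became 0.23 without Sin3B KO replicate 2 and 0.13 without WT replicate 2, and 35.8% of its exon length is shared with Fsbp on the same strand, so its reads may be split between the genes. Rad54l2, an ATPase that binds the androgen receptor and is named only for its likeness to Rad54, had 593 and 382 in the Sin3B KO libraries, against 554 and 341 in the WT libraries. Its log2 fold change of 0.13 became -0.19 without Sin3B KO replicate 1 and -0.22 without WT replicate 2. The libraries numbered 1 were the higher ones in both genotypes.

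Of the 5 genes of break sensing, end joining and single-strand break repair, 3 were above 0 and 2 below (median log2 fold change 0.15). Xrcc6 and Rad50 were the most abundant per length, Xrcc6 at 546 normalised read counts per kb of exon in Sin3B KO cells and 393 in WT cells, and Rad50 at 419.6 in Sin3B KO cells and 472 in WT cells. Rad50, the ATPase of the complex that senses broken ends, had 2345 and 2165 normalised read counts in the Sin3B KO libraries, against 2487 and 2589 in the WT libraries. Both KO values of Rad50 were lower, by a small margin (log2 fold change -0.17, SE 0.19; limma, adjusted p = 0.742). Xrcc5, the Ku80 partner of Xrcc6, had 709 and 782 in the Sin3B KO libraries, against 623 and 721 in the WT libraries, and its groups overlapped (log2 fold change 0.15, SE 0.23). Without WT replicate 1 it was 0.05, and without WT replicate 2 it was 0.26. Xrcc4, the scaffold of DNA ligase IV, had 332.5 and 366 in the Sin3B KO libraries, against 324 and 232 in the WT libraries (log2 fold change 0.34, SE 0.32). These groups did not overlap, but Sin3B KO 1 and WT 1 differed little, and the log2 fold change was 0.11 without WT replicate 2. Xrcc1, the scaffold of single-strand break repair, had 877 and 737 in the Sin3B KO libraries, against 839 and 933 in the WT libraries, and its groups overlapped.

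Mismatch repair had 7 of 8 members above 0 and 1 below, with a median log2 fold change of 0.10. Msh6, a subunit of the dimer that binds single mismatches, had 1398 and 1033 normalised read counts in the Sin3B KO libraries, against 1327 and 1486 in the WT libraries, and its groups overlapped (log2 fold change -0.22, SE 0.23). Leaving out Sin3B KO replicate 2 gave Msh6 a value of -0.006, and leaving out Sin3B KO replicate 1 gave -0.44. Msh3, a subunit of the dimer for larger loops, had 689 and 421 in the Sin3B KO libraries, against 563 and 466 in the WT libraries. Msh5, a meiotic member of the family, had 203 and 229 in the Sin3B KO libraries, against 255 and 175 in the WT libraries (log2 fold change 0.03, 95% interval -0.85 to 0.90), and its sign turned with another scaling or a left-out library.

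The MutL genes act after a mismatch is bound. Mlh3, best known from meiotic crossovers, had 653 and 590.4 normalised read counts in the Sin3B KO libraries, against 572 and 336 in the WT libraries (log2 fold change 0.50, SE 0.31). The value of Mlh3 was 0.12 without WT replicate 2. Pms1 had 403 and 573 in the Sin3B KO libraries, against 584 and 352 in the WT libraries, and varied more within each genotype than between them. Its log2 fold change of 0.08 became -0.17 without Sin3B KO replicate 2 and -0.28 without WT replicate 2.

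Products of some of these genes work as partners, so their transcript levels were also set against each other within each library, per kb of exon. The 4 pairs were chosen from known complexes with the values of the members already known. A ratio within a library does not depend on the scaling of that library. With 2 libraries a genotype, a two-sided exact permutation test cannot give a p below 0.3333, so no pair could pass. The ratio of Xrcc6 to Xrcc5, the subunits of Ku, was 1.98 and 1.77 in the Sin3B KO libraries, against 1.59 and 1.41 in the WT libraries, and it was the 1 pair whose groups did not overlap. The ratio of Rad51d to Xrcc2 was 5.26 and 4.74 in the Sin3B KO libraries, against 4.39 and 9.88 in the WT libraries. For Fancb to Fancl it was 0.727 and 0.610 in the Sin3B KO libraries, against 0.563 and 0.830 in the WT libraries. For Fanca to Fancg it was 0.0928 and 0.0367 in the Sin3B KO libraries, against 0.0697 and 0.0267 in the WT libraries, with the library numbered 1 the higher one in each genotype. In these 3 pairs the values of the genotypes interleave.

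Other genes of the same pathways, taken from lists written with earlier results of these data known, were also read from the fit. In all these lists 0 genes passed in limma (adjusted). By the authors' deposited table Rpa1, alone in the 4 repair lists, has an adjusted p under 0.05, where 0.316% of all listed genes do. Over all genes tested 53.4% were above 0. At an unadjusted p under 0.05 in limma, 4.97% of all genes were higher and 3.95% lower. Of 16 other Fanconi pathway genes 9 were above 0 (median log2 fold change 0.18), with 1 higher and 1 lower at an unadjusted p under 0.05. The higher one was Wdr48, a cofactor of the Fanconi deubiquitinase Usp1, with 1680.0 and 1466 normalised read counts in the Sin3B KO libraries, against 981 and 927 in the WT libraries. The lower one was Rev3l, the catalytic subunit of a lesion-bypass polymerase, with 334 and 444 in the Sin3B KO libraries, against 689 and 702 in the WT libraries. Of 37 other recombination genes 25 were above 0 (median 0.18), with 3 higher and 1 lower at an unadjusted p under 0.05. The highest of these was Rpa1, a subunit of the single-strand binding protein RPA, with 6649 and 5790.3 normalised read counts in the Sin3B KO libraries, against 3198 and 3727 in the WT libraries. Its log2 fold change was 0.85 (SE 0.19; limma, unadjusted p = 0.00187, adjusted p = 0.548), and the authors' deposited table gives it 0.74 with an adjusted p of 0.0163. Bccip, a Brca2-binding protein, had 2012 and 2144 in the Sin3B KO libraries, against 1316 and 1551 in the WT libraries. Top3a, a topoisomerase that resolves joined duplexes, had 749 and 763 in the Sin3B KO libraries, against 529 and 381 in the WT libraries. Rif1, which protects broken ends from resection, had 1323 and 1355 in the Sin3B KO libraries, against 2036 and 1811 in the WT libraries. Of 21 other end joining and single-strand break genes 15 were above 0 (median 0.29), with 1 higher at an unadjusted p under 0.05, Tdp1. The 15 other mismatch repair factors, which include the replication clamp and its loader, had 12 above 0 (median 0.24) and 0 under an unadjusted p of 0.05.

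Cell cycle genes leaned the same way as the repair genes. Of 25 S phase genes 21 were above 0 (median log2 fold change 0.40), and their summed level was 66348 and 51226 in the Sin3B KO libraries, against 42644 and 46257 in the WT libraries. Of 24 G2/M genes 21 were above 0 (median 0.58), and their summed level was 20236 and 13427 in the Sin3B KO libraries, against 15128 and 10242 in the WT libraries. For the S phase genes both KO sums were above both WT sums, while for the G2/M genes WT 1 was above Sin3B KO 2. By the authors' deposited table, 2 S phase genes, Rrm1 and Fen1, and 0 G2/M genes have an adjusted p under 0.05. Of all listed genes 0.316% do. At an unadjusted p under 0.05 in limma, 4 of the S phase and 6 of the G2/M genes were higher and 0 lower. Over all genes tested, 4.97% were higher and 3.95% lower. Library 1 was the higher one in both genotypes for 21 G2/M genes (87.5%) and 10 S phase genes (40%). This share was 27.3% over all genes tested. Rad51ap1 had its highest value in Sin3B KO 1 and its lowest in WT 2, the libraries that were also highest and lowest for the G2/M sum. The same held for Fanca, Fancl, Brca1, Rad54l2, Pms2 and Mlh3. Of these genes, only Fanca and Rad54l2 had WT 1 above Sin3B KO 2, as the G2/M sum did. The part of cell cycle state in the values of the repair genes was not tested.

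**Figure D4:**
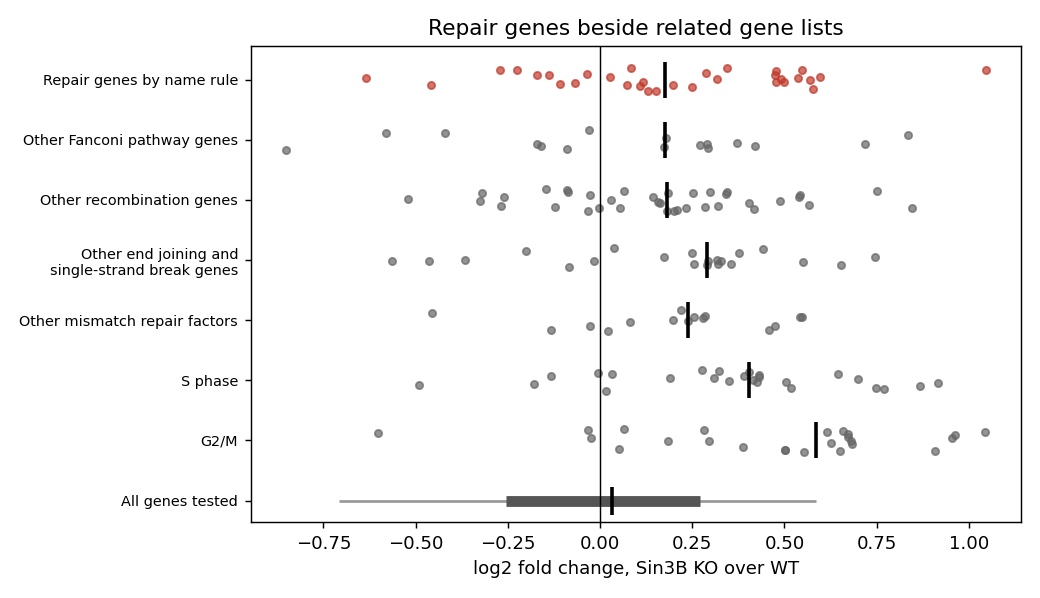
Log2 fold changes, Sin3B KO over WT, of the 32 repair genes (red) and of related lists (grey), with a black tick at each median; for all genes tested the thick bar spans the quartiles and the thin one the 5th to 95th percentile. The medians are 0.17 for the repair genes, 0.40 for S phase genes, 0.58 for G2/M genes and 0.03 for all genes tested.

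Transcript length also moved with the differences. Exon length and log2 fold change had a Spearman correlation of -0.24 over the 32 members and of -0.23 over 9000 tested genes with a length, as descriptions across genes that share the same libraries. The 16 members with the shorter exons had 14 log2 fold changes above 0 and a median of 0.27. The 16 with the longer exons had 9 above 0 and a median of 0.08. Of the 4 longest members, Brca2 (13.6 kb of exon) and Fancm (10.4 kb) were below 0, and Rad54l2 (11.8 kb) and Msh3 (11.3 kb) above 0. As given above, leaving out a library turned the sign for all of these but Fancm. The part of transcript length in the results was not tested.

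The library numbered 1 was the higher one in both genotypes for 11 of the 32 (34.4%) and the lower one in both for 5 (15.6%), where these shares were 27.3% and 32.3% over all genes tested. The median log2 difference between library 1 and library 2 was 0.12 in Sin3B KO cells and 0.00 in WT cells. Among the members higher in library 1 of both genotypes were Rad51ap1, Pms2, Brca1, Fanca, Brca2 and Rad54l2. Among those higher in library 2 of both were Xrcc3 and Rad52.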

How the data were processed

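Bowtie, DESeq and build mm9 are named, without versions, in the submitters' processing notes; no source used here gives the counting tool or annotation. Per the labels' protocols, cells were lysed on sorting and libraries made by SMARTER for low input. The authors made the normalised signal of each library, as deposited, by dividing read counts by 1 size factor. Its values lie within 0.01 of whole multiples of 1 unit per library; if that unit is taken as 1 read, an inference from the values that no source used here states, a library had between 9950979 and 13700630 reads in the listed genes. Of the 9796 genes in the table, each also has, per the file headers, the authors' log2 fold change, standard error, test score, p-value and adjusted p-value. The lowest mean listed was 120.2, so weaker genes of these families are not analysed here. The 552 genes (5.63%) without library values hold no member and were left out.

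limma 3.58.1 in R 4.3.3 was run on log2(value + 1) with a trended prior over 9244 genes (at least 1 in 2 or more libraries, which all genes and all 32 members met), Sin3B KO over WT, with Benjamini-Hochberg adjustment over all genes and a threshold of 0.05. The libraries gave 2 residual degrees of freedom and the prior 6.62. The script was tested on simulated data. Fold changes are on the log2(value + 1) scale and understate those of low values. For members this was slight. With 0.1 added instead of 1, Fanca had a log2 fold change of 0.552 against 0.548, and Rad51b 0.479 against 0.476. Exon lengths are unions of GENCODE M21 exons, matched by Ensembl identifier, and promoters are RefSeq GRCm38.p6 sequences matched by symbol; neither is the authors' build, so no coordinates are compared with the files.

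The members and lists were chosen with earlier results of these data known. Some members are not reported here, although they are counted; every other member is named, with its value in each library. Other genes were named for an unadjusted p under 0.05, as markers of the sort gate or for sharing exons with a member. Some erythroid markers were named for groups that do not overlap. All were named after their values were seen. Library numbers follow the titles.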

Additional observations from a re-analysis of the deposited data

How the results depend on the processing

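Members that passed numbered 0 in each of the 12 settings, the main one included, and the median log2 fold change of the members was above 0 in all of them (lowest 0.09, with equal totals, where the median of all genes was -0.05). With a mean of at least 500 it was 0.17, where the median of all genes was 0.11. Genes passed over all genes numbered 27 with the replicate number as a block and 0 with other scalings, pseudocounts of 0.1 and 5 or a mean of at least 500. With the replicate block, Rad51ap1 had the lowest adjusted p among members, 0.0776 (limma). The deviations of same-numbered libraries correlated across genes (Pearson r = 0.465), but what the number marks is not stated. With equal totals 4 members lay below WT in both KO libraries. With a mean of at least 500, 9 lay above and 1 below, as fewer members were tested. The shares over all genes were not counted in these settings. The sign turned for Msh5 with trimmed mean (-0.0076) and median-ratio (-0.0075) scaling, and with equal totals for Msh5 (-0.057), Msh3 (-0.013) and Pms1 (-0.0012).

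With a library left out, genes passed ranged between 0 and 1, the members' median between 0.13 and 0.29, members above WT between 17 and 20 and members below between 4 and 8. More members are then without overlap because fewer libraries are compared, and the shares over all genes were not counted. The sign was kept for 20 of the 29 members reported, 16 above 0 and 4 below. It turned for Fanca (-0.13 to 1.23), Fancc (-0.87 to 0.33), Brca2 (-0.97 to 0.049), Rad52 (-0.19 to 0.12), Rad54b (-0.45 to 0.23), Rad54l2 (-0.22 to 0.48), Pms1 (-0.28 to 0.45), Msh3 (-0.28 to 0.43) and Msh5 (-0.24 to 0.30). Count-based tests on reads recovered from the normalised values were planned and not run. A check of the lowest values did not accept them as recovered whole reads. Depth limits the weakest members: if a step of the values is 1 read, the counting error alone is 10.9% at 84 reads.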
